A study of Mus musculus with 16 samples.

Results

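Extracellular proteolysis was followed through 8 genes in AT2 cells (alveolar type 2 cells, the lung epithelium that makes surfactant) sorted from mice: the urokinase gene Plau, its receptor gene Plaur, the tissue plasminogen activator gene Plat, the activator inhibitor gene Serpine2, the metalloprotease genes Mmp7, Mmp9 and Mmp14, and the inhibitor gene Timp1. The genes were taken by symbol from a count table of 27179 gene identifiers, and all 8 of the 8 had a row. RNA came from 8 mice, each sorted into a CD44- and a CD44+ fraction, which gave 16 libraries in 4 groups of 4. CD44 is a hyaluronan receptor, and the gate before it kept cells that lacked CD45, CD31 and CD104 and carried Epcam and high CD200. The columns of the count table carry the prefix R26 for 4 of the mice and OG for the other 4, and the groups are called R26 CD44-, R26 CD44+, OG CD44- and, last, OG CD44+ here. The labels list SP-C WT and SP-C Mutant animals, where SP-C is the surfactant protein encoded by Sftpc, and give every sample the treatment OG TMX, controls included. No label ties R26 or OG to a genotype, so R26 is taken for the control and OG for the mutant by inference only. If that is wrong, each OG against R26 difference changes sign against genotype. The allele, the promoter that drives any recombinase, and the strain and age of the animals are not given in the sources used here.

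Plasminogen is an inactive protease precursor that urokinase and tissue plasminogen activator cut into plasmin, which dissolves fibrin and can release or activate matrix proteins, growth factors and other proteases. The urokinase receptor holds urokinase at the cell surface, and serpins such as the one encoded by Serpine2 trap the activators. Matrix metalloproteases are made as inactive precursors, are activated by other proteases, and are held in check by tissue inhibitors of metalloproteases. In the injured lung, epithelial cells are a known source of several of these proteins, and matrilysin, the product of Mmp7, is a well known marker of pulmonary fibrosis in people.

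Total counts ran from 9022471 to 21363816 per library, so that 3 counts were worth at most 0.333 CPM (counts per 1000000 counts of the library) in any library. Levels below are CPM after scaling the libraries by the trimmed mean of M values (TMM), as mean ± SD with n = 4, and a difference is edgeR's log2 fold change ± its SE, fitted over 15516 genes. Sftpc was among the abundant transcripts in every group, at 79592 ± 7872 CPM in R26 CD44-, 54364 ± 12253 in R26 CD44+, 11684 ± 432 in OG CD44- and 6696 ± 684 in OG CD44+. The 12 AT2 markers examined were all detected in every group, and all 12 fell in each of the 4 comparisons below, opposite to the genes of the set. Their summed level was 150900 to 175590 CPM in R26 CD44- libraries, 99164 to 141380 in R26 CD44+, 46676 to 49800 in OG CD44- and 22708 to 27222 in OG CD44+, and its part in the results was not tested. In bulk RNA, a change in the share of cells that carry a transcript and a change in its level per cell cannot be told apart.

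Compared per kilobase of exon, the make-up of the set differed between groups. In R26 CD44- cells 2 genes stood far above the rest: Mmp14 had a level of 8.81 ± 0.873 CPM per kb and Serpine2 one of 6.46 ± 0.652, while Plaur (0.441 ± 0.142), Plau (0.193 ± 0.0679), Timp1 (0.189 ± 0.228) and Plat (0.171 ± 0.0276) had levels that overlapped or nearly so. In OG CD44+ cells Mmp14 was again the highest, at 38.6 ± 1.24 CPM per kb, and Plaur was next at 32.2 ± 1.34. Serpine2 (14.3 ± 1.02), Timp1 (11.99 ± 2.63) and Plau (10.9 ± 3.24) followed, and neighbours in that order lay within their spread of each other. Plat was last among the tested genes at 2.37 ± 0.750 CPM per kb. The exon lengths are those of an annotation that may differ from the one behind the counts, so these values set the order only roughly.

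**Figure D1:**
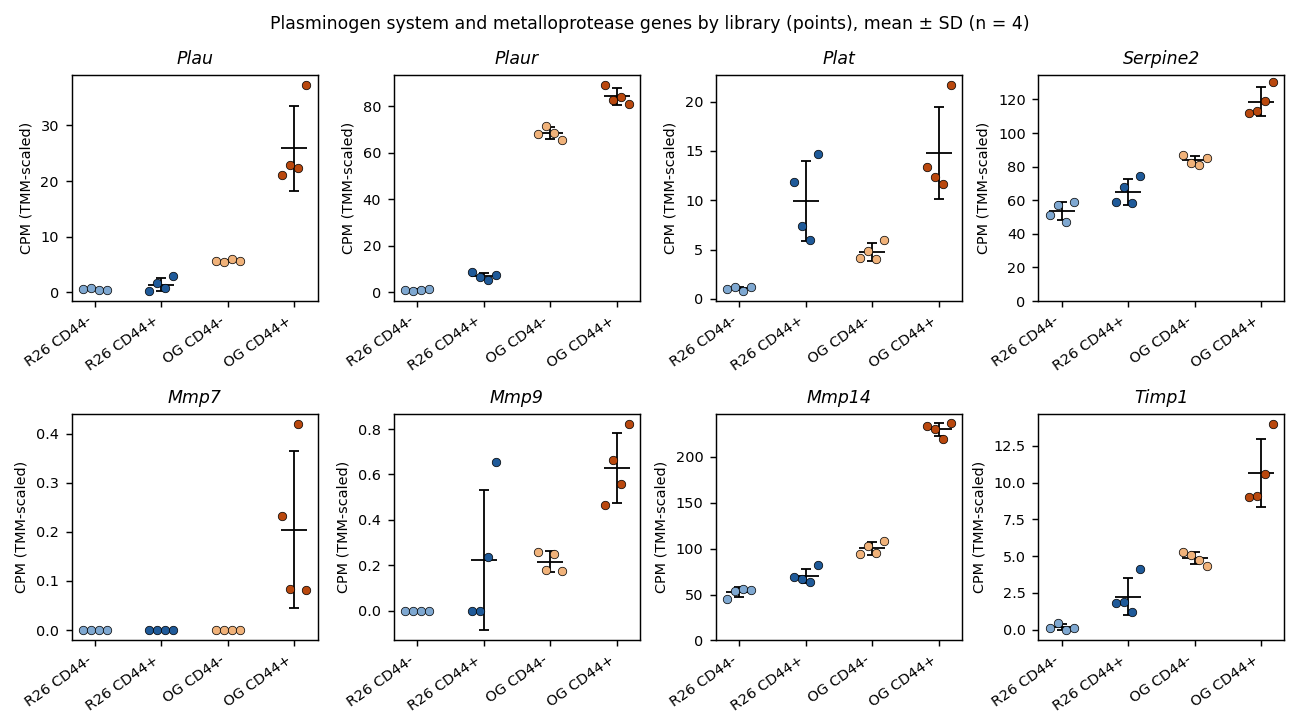
Each panel plots 1 of the 8 genes as TMM-scaled CPM (linear axis) for the 4 groups. Points are single libraries, and the bar and whiskers are the mean ± SD of 4. Plaur is low in both R26 groups and lies between 65.6 and 89.2 CPM in all 8 OG libraries, while Mmp14 and Plau stand highest in OG CD44+.

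The sorts of the OG animals were compared first, CD44+ against CD44-, which is the series' question in fibrosis if OG marks the mutants. Of the 8 genes, 6 passed the filter on low counts and were tested, and 2, Mmp7 and Mmp9, were not. All 6 tested genes rose in OG CD44+ cells and 0 fell, where 22.3% of all genes tested were called higher and 28.0% lower (adjusted p under 0.05, no fold minimum). Plau had the largest increase among them (log2 fold change 2.20 ± 0.26, edgeR adjusted p = 2.32e-06) and Plaur the smallest (0.30 ± 0.07, adjusted p = 0.00175). Against a 1.5-fold minimum the calls of Plaur and Serpine2 were lost, and of all calls then made 80.4% were higher. The share of all calls that were higher was 44.3% in the fit without that minimum, and 51.8% to 52.6% without any 1 of the R26 libraries. The median over the 6 was 1.16, against -0.06 over all genes.

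In R26 animals the same 6 genes were called higher in CD44+ cells and 0 lower, where 21.6% of all genes were called higher and 15.4% lower. Timp1 (3.59 ± 0.51, adjusted p = 7.74e-06) and Plat (3.22 ± 0.32, adjusted p = 2.05e-07) had the largest differences, and Plaur followed (2.66 ± 0.18, adjusted p = 4.29e-11). The median over the 6 was 2.10, against -0.02 over all genes. The share of all calls that were higher was 58.4%, 48.0% with DESeq2 size factors, 66.2% with only the 8 libraries compared, and 42.4% to 45.2% without any 1 of the 8 R26 libraries. Leaving out 1 library took the count of called genes to as few as 4, and a 1.5-fold minimum took it to 3, where 99.6% of all calls were higher.

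Between OG and R26 animals, all 6 tested genes were higher in OG in the CD44- sort and in the CD44+ sort. In CD44- cells 39.4% of all genes were called higher and 29.6% lower, so a call by itself says little there, and the sizes carry the comparison: Plaur differed by 5.91 ± 0.13 (adjusted p = 1.22e-21), Timp1 by 4.68 ± 0.44 (adjusted p = 4.79e-09) and Plau by 3.55 ± 0.42 (adjusted p = 8.57e-07), with a median of 2.85 over the 6 against 0.12 over all genes. In CD44+ cells 34.5% of all genes were called higher and 34.6% lower. There Plau had the largest difference (4.21 ± 0.33, adjusted p = 4.71e-09) and Plat the smallest (0.55 ± 0.24, adjusted p = 0.0456), with a median of 1.96 against -0.01. The Plat call in CD44+ cells was lost in 16 of 25 alternatives. The comparisons share groups, so they are not independent of each other.

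**Figure D2:**
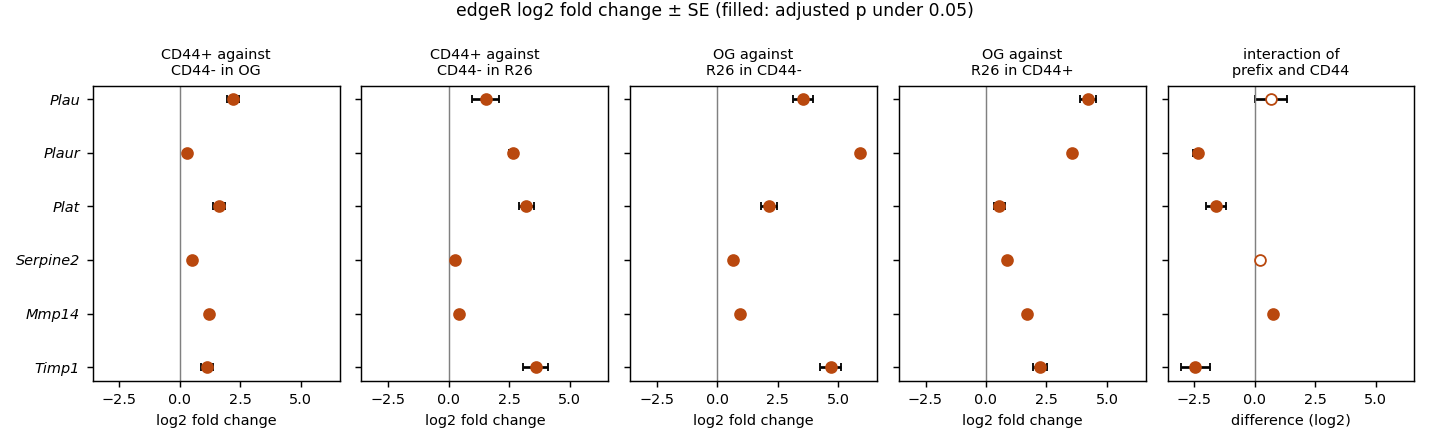
Points are edgeR log2 fold changes and whiskers their SE for the 6 tested genes in the 4 comparisons, with the difference of the CD44 effects (OG minus R26) at the right. Filled points had adjusted p under 0.05. Plaur has the largest difference between OG and R26 in CD44- cells (5.91), while Plau does in CD44+ cells (4.21).

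Plaur encodes the urokinase receptor, which anchors urokinase on the cell (gene 18793, chromosome 7, 24462484 to 24475968 in mm10, plus strand). Its levels in R26 CD44- were 1.03, 0.724, 1.25 and 1.61 CPM in animals 8, 7, 2 and 1, and in R26 CD44+ they were 8.76, 6.82, 5.35 and 7.49 CPM. In OG CD44- they were 68.2, 71.7, 68.4 and 65.6 CPM in animals 7, 6, 5 and 3, and in OG CD44+ they were 89.2, 82.7, 83.7 and 81.1 CPM. No 2 of the 4 groups overlapped, and the step from R26 to OG was much larger than the step from CD44- to CD44+ within OG. CD44+ cells had 4.28 to 9.42 times the level of CD44- cells of the same animal in R26, and 1.15 to 1.31 times in OG. The CD44 effect was smaller in OG by 2.36 ± 0.19 on the log2 scale (adjusted p = 5.30e-09), a difference that kept its call in all 25 alternatives.

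The promoters of Plaur and Mmp7 are shown because both hold a match to TGANTCA, the core that AP-1 factors (FOS and JUN dimers) bind. Promoters of 300 bases, 250 before and 50 after the start of transcription, were found in RefSeq's GRCm38.p6 table for 5 of the 8 genes (6 promoters). The pattern reads the same on both strands, and 2 of the 6 promoters had it, against 7.81% of all 32851 promoters of that length in the table. The stretch before the Plaur start lies at chr7:24462384-24462450 and that before the Mmp7 start at chr9:7691997-7692063, both on the plus strand and written 5′ to 3′ with the match in capitals.
Plaur: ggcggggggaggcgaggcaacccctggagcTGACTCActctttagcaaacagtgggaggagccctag
Mmp7: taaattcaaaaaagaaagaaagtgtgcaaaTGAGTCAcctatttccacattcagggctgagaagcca
The middle of the match stands 66 bases before the Plaur start and 60 bases before the Mmp7 start. The second promoter listed for Mmp7 and those of Serpine2, Mmp14 and Timp1 held 0 matches in this window. Whether any factor was bound there was not measured.

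Plau encodes urokinase, the activator that the receptor holds (gene 18792, chromosome 14, 20836660 to 20843385, plus strand). It was near the limit of counting in R26 cells, at 0.517, 0.658, 0.333 and 0.322 CPM in CD44- animals 8, 7, 2 and 1 and at 0.283, 1.62, 0.713 and 2.81 CPM in their CD44+ cells. The R26 sorts overlapped, and animal 8 went the other way from the remaining 3. Its R26 CD44 difference (1.54 ± 0.55, adjusted p = 0.0376) lost its call in 9 of 25 alternatives, and without the CD44+ library of animal 1 it was 0.84 (adjusted p = 0.235). In OG CD44- the level was tight at 5.59, 5.38, 5.93 and 5.6 CPM in animals 7, 6, 5 and 3, and in OG CD44+ it was 21.1, 22.8, 22.3 and 37.3 CPM, with animal 3 apart from the others. CD44+ cells had 3.76 to 6.67 times the level of CD44- cells of the same OG animal. Without both libraries of OG animal 3 the calls of all 6 tested genes in OG CD44+ against CD44- were kept. The CD44 effects of the 2 prefixes differed by 0.66 ± 0.66 for Plau, which did not pass the test (adjusted p = 0.517).

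Ligand and receptor therefore stood in different proportions in the sorts. The ratio of the Plau to the Plaur level, both per kilobase, was 0.0909 ± 0.00577 in OG CD44- and 0.343 ± 0.112 in OG CD44+ (n = 4 each), and the ranges of 0.0829 to 0.0959 and 0.261 to 0.509 did not overlap. The ratio was not read in R26 cells, where Plau had few counts.

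Plat encodes tissue plasminogen activator (gene 18791, chromosome 8, 22757727 to 22782844, plus strand), and it alone among the tested genes had a higher mean in R26 CD44+ than in OG CD44-. Its levels were 1.03, 1.18, 0.833 and 1.21 CPM in R26 CD44- animals 8, 7, 2 and 1, and 11.9, 7.36, 5.94 and 14.7 CPM in their CD44+ cells. In OG CD44- they were 4.16, 4.88, 4.01 and 6.0 CPM in animals 7, 6, 5 and 3, and in OG CD44+ 13.4, 12.4, 11.6 and 21.7 CPM. The CD44+ sorts of the 2 prefixes overlapped, and their difference (0.55 ± 0.24) lost its call in 16 of 25 alternatives and was 0.32 (adjusted p = 0.198) without the CD44+ library of OG animal 3. The CD44 difference was 1.62 ± 0.24 in OG (adjusted p = 2.28e-05), smaller than in R26 by 1.60 ± 0.41 (adjusted p = 0.00802).

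Serpine2 encodes protease nexin-1, a serpin that inhibits thrombin, urokinase and plasmin (gene 20720, chromosome 1, 79794197 to 79861180, minus strand), and was well expressed everywhere. Its levels were 51.3, 57.0, 47.0 and 58.7 CPM in R26 CD44- animals 8, 7, 2 and 1 and 58.7, 67.6, 58.2 and 74.3 CPM in R26 CD44+. They were 86.9, 82.2, 81.2 and 85.1 CPM in OG CD44- animals 7, 6, 5 and 3 and 112, 113, 119 and 131 CPM in OG CD44+. The R26 sorts overlapped, while each OG sort stood above both R26 sorts. Within an animal, CD44+ cells had 1.14 to 1.26 times the CD44- level in R26 and 1.29 to 1.53 times in OG. Its differences were the smallest of the set between prefixes in CD44- cells, at 0.65 ± 0.08 (adjusted p = 6.35e-08), and next to Plat in CD44+ cells, at 0.87 ± 0.08 (adjusted p = 4.46e-10). Its R26 CD44 difference of 0.28 ± 0.08 (adjusted p = 0.00693) lost its call in 5 of 26 alternatives and was 0.14 (adjusted p = 0.176) without the CD44+ library of animal 1. With the animals as a replicate block in edgeR that R26 difference kept its call (adjusted p = 5.53e-05). The CD44 effect was larger in OG by 0.23 ± 0.11, which missed the threshold (adjusted p = 0.127) and passed it in 8 of 25 alternatives: with the animals as a replicate block (adjusted p = 0.013) and without any 1 of 7 of the R26 libraries (lowest adjusted p = 0.00534).

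Mmp14 encodes MT1-MMP, a membrane-bound collagenase that also activates the Mmp2 precursor (gene 17387, chromosome 14, 54431612 to 54445364, plus strand). Its levels were 44.8, 53.8, 56.2 and 55.1 CPM in R26 CD44- animals 8, 7, 2 and 1 and 68.7, 67.4, 63.9 and 81.8 CPM in R26 CD44+. They were 94.3, 103, 95 and 109 CPM in OG CD44- animals 7, 6, 5 and 3 and 233, 231, 220 and 237 CPM in OG CD44+. The 4 groups did not overlap, and they stood in the order R26 CD44-, R26 CD44+, OG CD44-, OG CD44+. The ratio of CD44+ to CD44- within an animal was 1.14 to 1.53 in R26 and 2.17 to 2.47 in OG. The CD44 effect of Mmp14 was called larger in OG, by 0.77 ± 0.10 (adjusted p = 7.93e-06), and the difference lost its call against a 1.5-fold minimum (adjusted p = 0.176). Between prefixes Mmp14 differed by 0.94 ± 0.07 in CD44- cells (adjusted p = 8.68e-11) and by 1.71 ± 0.07 in CD44+ cells (adjusted p = 1.74e-15).

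Timp1 encodes a secreted inhibitor of metalloproteases (gene 21857, chromosome X, 20870166 to 20874735, plus strand). It had 2, 7, 0 and 1 counts in R26 CD44- animals 8, 7, 2 and 1, so that its fold changes against this group rest on 10 counts in all. Its levels were 1.79, 1.88, 1.19 and 4.12 CPM in R26 CD44+, then 5.27, 5.06, 4.76 and 4.33 CPM in OG CD44- animals 7, 6, 5 and 3, and 8.99, 9.06, 10.6 and 13.97 CPM in OG CD44+. The groups did not overlap. Pooled over a group, OG CD44- had 26.8 times the R26 CD44- level (95% counting interval 14.4 to 56.5) and R26 CD44+ had 12.7 times (6.6 to 27.3). Within OG the CD44 difference was 1.13 ± 0.25 (adjusted p = 8.80e-04), and it was smaller than in R26 by 2.46 ± 0.60 (adjusted p = 0.00431). The gene lies inside Syn1, which is on the other strand, and Syn1 itself had 1 to 18 counts per library.

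Mmp7 encodes matrilysin (gene 17393, chromosome 9, 7692090 to 7699585, plus strand). It had 0 counts in all 12 libraries of R26 CD44-, R26 CD44+ and OG CD44-, and 3, 1, 6 and 1 counts in OG CD44+ animals 7, 6, 5 and 3. A count of 0 allows a level of up to 0.0448 CPM over OG CD44- and 0.0734 over R26 CD44+ (3 counts over the 4 libraries), and OG CD44+ was at 0.204 ± 0.160 CPM. Counts of a group were also pooled over its 4 library sizes, rather than averaged over libraries. The 11 counts of OG CD44+ then stood at 4.78 times OG CD44- and 2.91 times R26 CD44+, each taken at 3 counts. The counting error of the 11 is left out, so these are not lower limits. In an edgeR fit with no filter on low counts Mmp7 was called in both comparisons (adjusted p = 0.00751 and 0.0144). It entered that fit only through its OG CD44+ counts, so its direction was fixed in advance and these calls add no support. Per kilobase its OG CD44+ level was 0.191 ± 0.150 CPM, close to that of Mmp9 and far under that of Mmp14. An antisense gene, AV064505, overlaps it on the other strand and had no row of its own under that name.

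Mmp9 encodes gelatinase B, an enzyme made in quantity by neutrophils (gene 17395, chromosome 2, 164940780 to 164955850, plus strand). It had 0 counts in all 4 R26 CD44- libraries, and 0, 0, 2 and 7 counts in R26 CD44+ animals 8, 7, 2 and 1. It had 4, 4, 3 and 3 counts in OG CD44- and 6, 8, 8 and 10 counts in OG CD44+ animals 7, 6, 5 and 3. Pooled, OG CD44+ had 2.98 times the OG CD44- level (95% counting interval 1.54 to 6.04) and 2.83 times the R26 CD44+ level (1.32 to 6.73). These intervals do not cover the spread between animals. OG CD44- stood at 3.84 times R26 CD44- taken at 3 counts, with its own counting error left out. In the edgeR fit with no filter on low counts the call was made between prefixes in CD44- cells (adjusted p = 0.00404) and with CD44 in R26 (adjusted p = 0.0117). It was missed with CD44 in OG (adjusted p = 0.0853) and between prefixes in CD44+ cells (adjusted p = 0.0869). Of 10 neutrophil markers 2 passed the filter, and both rose with CD44 in OG: Ltf, the lactoferrin gene, from 2.70 ± 0.274 to 15.8 ± 2.45 CPM (adjusted p = 1.75e-07) and Cxcr2, a chemokine receptor gene, from 0.156 ± 0.132 to 1.97 ± 0.798 CPM (adjusted p = 8.52e-05). The sum of the 10 was 1.51 to 3.25 CPM in R26 CD44-, 3.39 to 10.5 in R26 CD44+, 2.92 to 3.71 in OG CD44- and 16.7 to 23.8 in OG CD44+, most of it Ltf. In OG CD44+ the alarmin gene S100a8 was at 0.881 ± 0.604 CPM, while Ly6g and Mpo had 2 counts each and Elane 0. Their part in the Mmp9 counts was not tested.

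The CD44 effect was compared between the prefixes as an interaction, OG minus R26, for which 6.57% of all genes were called higher and 18.1% lower. Of the 6 tested genes 1 was called higher, Mmp14, and 3 lower, Plaur, Plat and Timp1. The share of all calls that were higher was 26.6%, 39.1% with DESeq2 size factors and 51.0% to 53.5% without any 1 of the R26 libraries, so which direction held the majority over all genes depended on the scaling. The 4 calls kept their signs in all of these. Against a 1.5-fold minimum 2 of the 4 were kept, those of Plaur and Timp1, and 8.2% of all calls were higher.

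Markers of fibroblasts and mural cells, which are known to express several of these genes, moved with several of these differences. All 18 fibroblast and mural markers rose with CD44 in OG (median 1.29) and in R26 (median 3.06), and in CD44- cells 16 of 18 were higher in OG and 0 lower (median 1.56). Between prefixes in CD44+ cells 6 rose and 6 fell (median -0.12). Their summed level was 184 to 223 CPM in R26 CD44- libraries, 1150 to 2380 in R26 CD44+, 1378 to 1446 in OG CD44- and 3691 to 5836 in OG CD44+, and 0 of the 18 were at 0 counts in any group. The highest sum of each CD44+ group was that of R26 animal 1 and of OG animal 3, which were also the highest libraries of their groups for Plau, Plat, Serpine2, Mmp14 and Timp1, but not for Plaur. Other lists set them apart too. Basal cell markers summed to 61.2 CPM in R26 CD44+ animal 1, against 1.54 to 3.30 in the rest of its group. In OG CD44+ animal 3, lymphocyte and plasma cell markers summed to 427 CPM (rest 157 to 161) and endothelial markers to 42.4 (rest 25.3 to 27.8). For ciliated and for club and secretory markers neither library was the highest of its group. Without these 2 libraries, a choice made after seeing the data, all 6 genes were still called in OG CD44+ against CD44-, where Plau differed by 1.97 and Mmp14 by 1.18, and in both comparisons between prefixes, while 5 were called in R26.

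R26 CD44+ and OG CD44- libraries had overlapping sums of fibroblast markers, and the 6 tested genes were read in these 2 groups. Plaur was at 5.35 to 8.76 CPM in R26 CD44+ and 65.6 to 71.7 CPM in OG CD44-. In the same order Plau was at 0.283 to 2.81 and 5.38 to 5.93 CPM, and Mmp14 at 63.9 to 81.8 and 94.3 to 109 CPM. Serpine2 was at 58.2 to 74.3 and 81.2 to 86.9 CPM, and Timp1 at 1.19 to 4.12 and 4.33 to 5.27 CPM. Plat went the other way from these genes and the same way as most of the markers, at 5.94 to 14.7 and 4.01 to 6.0 CPM. What part fibroblast RNA had in the levels of Plat and Timp1, or of the other genes, was not tested.

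**Figure D3:**
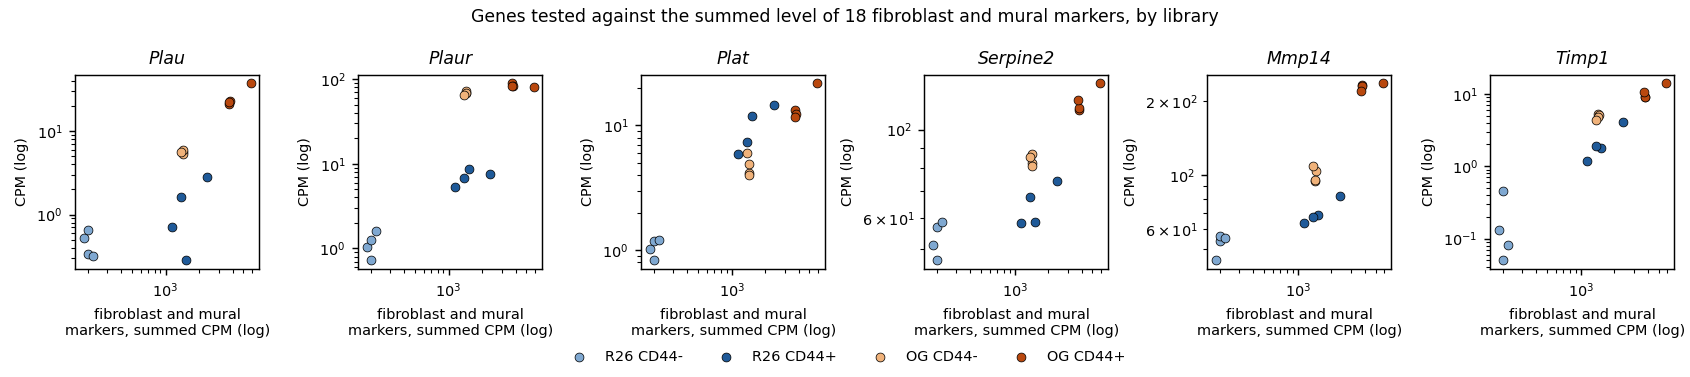
Each panel plots 1 tested gene (CPM, log axis) against the summed CPM of 18 fibroblast and mural markers (log axis) in the 16 libraries, coloured by group. A level of 0 is drawn at 0.05 CPM. R26 CD44+ and OG CD44- libraries lie at similar marker sums (1150 to 2380 and 1378 to 1446). There Plaur, Plau, Mmp14, Serpine2 and Timp1 are higher in OG, and Plat is mostly higher in R26. Of the markers, only Fn1 and Col1a1 have higher means in OG CD44- than in R26 CD44+, so similar sums do not mean matched markers.

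Other marker lists differed between the groups too. Of 11 endothelial markers tested, 11 rose with CD44 in R26, while 0 rose and 7 fell in OG; their sum was 25.5 to 41.1 CPM in R26 CD44-, 118 to 145 in R26 CD44+, 44.6 to 49.6 in OG CD44- and 25.3 to 42.4 in OG CD44+. Of 13 macrophage and monocyte markers tested, 7 rose and 1 fell with CD44 in R26, 2 rose and 4 fell in OG, and 10 were higher and 1 lower in OG in CD44- cells (median 3.44), against 6 higher and 3 lower in CD44+ cells. Without Lyz2, a lysozyme gene that AT2 cells express, they summed to 77.0 to 85.9, 99.5 to 110, 137 to 142 and 109 to 118 CPM in the same order of groups. Mesothelial markers summed to 9.66 to 11.6, 44.8 to 58.9, 41.1 to 53.1 and 110 to 123 CPM, of which Msln alone had means of 3.54, 25.5, 36.1 and 106.6 CPM. Of the 4 mesothelial markers tested, 4 rose and 0 fell with CD44 in R26 (median 2.13), and 2 rose and 2 fell in OG (median 0.085). Between prefixes 2 were higher and 0 lower in OG in CD44- cells (median 0.85), and 1 higher and 2 lower in CD44+ cells (median -1.15). Lymphocyte and plasma cell markers summed to 2.71 to 4.26 and 9.61 to 16.7 CPM in the CD44- sorts of R26 and OG and to 155 to 309 and 157 to 427 CPM in the CD44+ sorts. Of 10 ciliated cell markers 10 rose with CD44 in OG and 8 in R26, and 9 were higher in OG in each sort. Of 10 club and secretory markers 8 rose and 1 fell with CD44 in OG, and 7 rose and 2 fell in R26. Between prefixes 0 of these 10 were higher and 4 lower in OG in CD44- cells, and 4 higher and 5 lower in CD44+ cells. Of 12 markers of AT1 cells (alveolar type 1 cells) 10 rose and 1 fell with CD44 in R26 (median 1.65), and 5 rose and 2 fell in OG (median 0.006). In OG against R26, 9 were higher and 0 lower in CD44- cells (median 1.19), and 7 higher and 5 lower in CD44+ cells (median 0.84). They summed to 2403 to 2621 CPM in R26 CD44-, 3307 to 3775 in R26 CD44+, 5245 to 5761 in OG CD44- and 5400 to 5922 in OG CD44+. The part of these cell types in the levels of the 8 genes was not tested.

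The 16 markers of transitional alveolar cells, an injury state high in Krt8, were all called higher in OG in both sorts, with medians of 2.87 in CD44- and 2.37 in CD44+ cells. With CD44 10 of these 16 rose and 2 fell in OG (median 0.37), and 13 rose and 0 fell in R26 (median 0.63). In the interaction 2 rose and 7 fell. Over all genes 22.3% were called higher and 28.0% lower with CD44 in OG, and 21.6% and 15.4% in R26. The shares were 6.57% and 18.1% in the interaction, and 39.4% and 34.5% were called higher between prefixes in CD44- and CD44+ cells.

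The wider pathway was read from 4 lists of other genes, whose counts stand beside 22.3% of all genes called higher and 28.0% lower with CD44 in OG, and 21.6% and 15.4% in R26. In the plasminogen list, 24 of 30 genes were tested, and Plg, the gene of plasminogen itself, had 0 counts in every library. Of the 24, 14 rose and 4 fell with CD44 in OG (median 0.43), and 14 rose and 2 fell in R26 (median 0.32). In OG, F3, the gene of the clotting starter tissue factor, rose by 0.99 (adjusted p = 5.32e-08), St14, which encodes the membrane protease matriptase, rose by 0.47 (adjusted p = 9.01e-09), and Dpp4, which encodes a surface peptidase, fell by 0.93 on the log2 scale (adjusted p = 2.09e-12). In R26, Hgf, a growth factor gene whose product is cut to its active form by serine proteases, rose by 3.23 (adjusted p = 3.60e-09), and Thbd, the gene of the anticoagulant thrombomodulin, by 2.63 (adjusted p = 2.19e-06). Fibroblast and endothelial markers rose in the same sort, and their part in these increases was not tested.

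Between prefixes, where the shares of all genes called higher and lower were 39.4% and 29.6% for CD44- cells, then 34.5% and 34.6% for CD44+ cells, 15 of the 24 were higher and 5 lower in OG in CD44- cells (median 0.84), and 13 higher and 5 lower in CD44+ cells (median 0.92). Procr, the gene of the endothelial protein C receptor, went from 0.953 ± 0.496 CPM in R26 CD44- to 57.7 ± 0.924 in OG CD44-, a difference of 5.84 ± 0.19 (adjusted p = 2.13e-16), close in size to that of Plaur. It was at 63.2 ± 4.61 CPM in OG CD44+. Lrp8, a receptor of the low density lipoprotein receptor family, differed by 4.40 ± 0.13 in CD44- cells (adjusted p = 5.36e-19), and Itgav, the alpha subunit of integrins that bind vitronectin and latent TGF-beta, by 1.83 ± 0.07 (adjusted p = 9.77e-17). Eno1, whose product can bind plasminogen, was called higher as well, but it is known to have near-identical copies and its counts are uncertain.

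Of the 17 other metalloprotease genes 13 were tested, and their directions were mixed. With CD44, 8 rose and 1 fell in OG (median 0.87) and 6 rose and 2 fell in R26 (median 1.51). Mmp2, the gelatinase A gene and a fibroblast product, rose from 30.1 ± 1.41 to 96.2 ± 38.4 CPM in OG and from 5.36 ± 0.883 to 54.2 ± 24.3 in R26. Between prefixes 9 were higher and 4 lower in OG in CD44- cells (median 1.65), and 8 higher and 3 lower in CD44+ cells (median 0.82). Mmp15, the gene of another membrane-type metalloprotease, moved the other way from Mmp14: it was at 889 ± 63.8 CPM in R26 CD44- and 373 ± 9.16 in OG CD44-, lower in OG by 1.25 ± 0.07 on the log2 scale (adjusted p = 4.27e-14).

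A mixed list of 13 genes held metalloprotease inhibitors (Timp2, Timp3, Timp4, Reck), the serine protease inhibitor Tfpi2 and convertases (Furin, Pcsk5, Pcsk6). It also held the inducer Bsg, and Lcn2, Cd63, Sparcl1 and Pcolce, which are none of these. Of the 13 genes 12 were tested, of which 8 rose and 1 fell with CD44 in OG (median 0.55) and 7 rose and 2 fell in R26 (median 1.15). In OG against R26, 9 were higher and 1 lower in CD44- cells (median 1.56), and 9 higher and 2 lower in CD44+ cells (median 0.58). Timp2, which with Mmp14 helps activate the Mmp2 precursor, was at 87.4 ± 5.47, 205 ± 34.1, 266 ± 5.20 and 438 ± 11.4 CPM in the CD44- and CD44+ sorts of R26 and then of OG, the same order of means as Mmp14. Timp3, a matrix-bound inhibitor, was at 193 ± 11.1, 514 ± 66.0, 561 ± 14.8 and 746 ± 37.7 CPM. Reck, a membrane-anchored inhibitor of metalloproteases, was lower in OG, at 8.89 ± 1.19 against 26.3 ± 2.21 CPM in CD44- cells (log2 fold change -1.55 ± 0.12, adjusted p = 1.63e-11).

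All 13 sheddases and ADAMTS genes were tested. With CD44, 7 rose and 3 fell in OG (median 0.19) and 8 rose and 1 fell in R26 (median 0.26). In OG against R26, 6 were higher and 2 lower in CD44- cells (median 0.24), and 6 higher and 3 lower in CD44+ cells (median 0.07); 6 of 13 is near the share over all genes. Adam8, a sheddase gene, had the same order of groups as Mmp14, at 1.73 ± 0.166, 4.67 ± 0.746, 9.36 ± 1.22 and 43.6 ± 4.51 CPM, and rose with CD44 in OG by 2.22 ± 0.11 (adjusted p = 1.42e-13). In the interaction, where 6.57% of all genes were called higher and 18.1% lower, 3 of 24 rose and 7 fell in the plasminogen list. Among metalloproteases 1 of 13 rose and 3 fell, near those shares. In the mixed list 1 of 12 rose (the convertase gene Furin, by 0.70) and 5 fell, and among sheddases 1 of 13 rose and 5 fell.

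**Figure D4:**
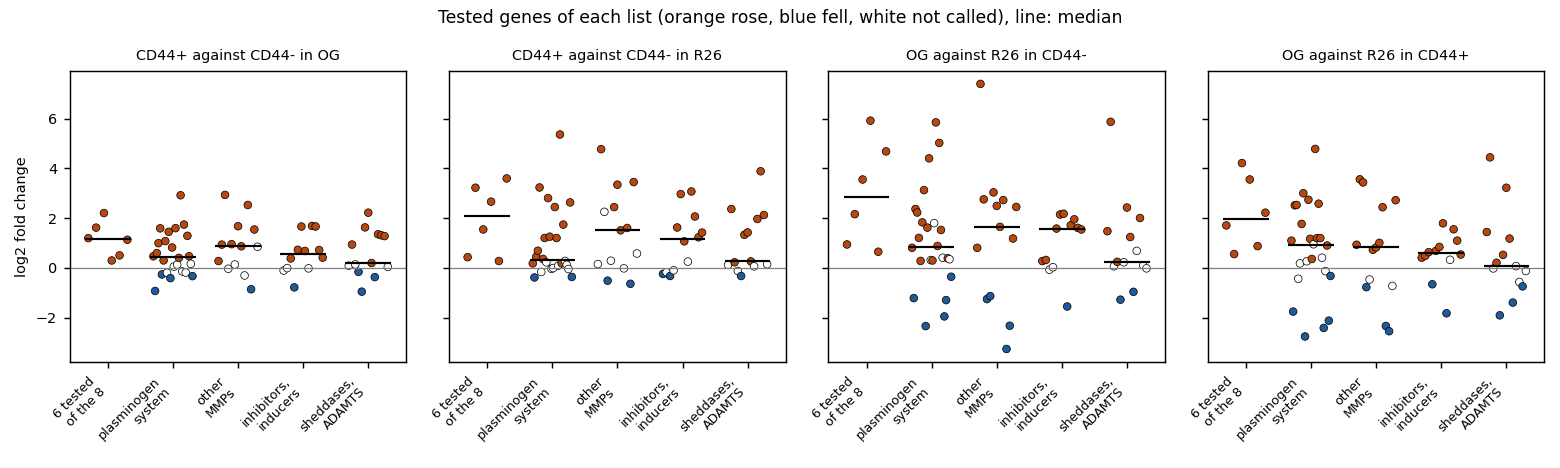
Points are log2 fold changes of single tested genes for the 6 tested genes of the set and the 4 lists, in a panel per comparison; orange points rose, blue fell and white were not called, and lines are medians. The 6 tested genes are all orange and their medians (1.16, 2.10, 2.85 and 1.96) lie above those of the 4 lists.

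The genes whose profile over the 16 libraries was nearest to each member were sought among 7229 genes, by the root mean square distance of centred log2 CPM. Plaur was nearest to Flnc, the gene of the actin crosslinker filamin C (distance 0.227), which had means of 1.43, 8.47, 62.8 and 89.3 CPM in the CD44- and CD44+ sorts of R26 and then of OG. Tnc, the matrix gene tenascin C, followed at 0.458. Plat was nearest to Nid1 (0.189), the basement membrane gene nidogen 1, with means of 5.34, 46.2, 23.9 and 72.1 CPM, and then to Gas7 (0.241) and Vim (0.256), the intermediate filament gene vimentin. Mmp14 was nearest to the kinase gene Ptk2b (0.149) and Serpine2 to Shoc2 (0.095), a scaffold gene of the RAS pathway. For Timp1 the nearest were Msln (0.489) and Sh3pxd2b (0.499), then the collagen gene Col1a1 (0.502), which is also on the fibroblast marker list. For Plau no gene came closer than Clu, the clusterin gene, at 0.71. Mcam, a cell adhesion gene, followed at 0.714, and Itgb6, a subunit of the integrin that activates TGF-beta, stood at 0.733. Clu and Itgb6 are also on the list of transitional alveolar markers, and Msln is on the mesothelial list. The distances are over libraries that share groups and animals, and they are descriptions without a test.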

How the data were processed

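RNA-seq counts per gene came from 16 libraries of sorted AT2 cells of 8 mice (4 per prefix). The deposited table holds raw counts per gene identifier, and the authors' processing notes name Bowtie2 and mm10; the counter, its strand setting and the annotation are not given in the sources used here. The library kit was stranded, per the labels. Of 27179 identifiers 93.0% matched a symbol, and 1 identifier without a symbol held 7.32% of counts. Totals were 9022471 to 21363816 per library.

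Genes passing filterByExpr (15516) were tested with edgeR 4.0.16 (R 4.3.3; quasi-likelihood, robust, TMM scaling, 1 mean per group, Benjamini-Hochberg adjustment, threshold 0.05). SE is the fold change divided by the root of F. Counting intervals (95%, exact) cover counting error only, and floors (3 counts over a group) only that of the group with 0 counts. Alternatives included DESeq2 1.42.0, limma-voom (limma 3.58.1), other filters, a 1.5-fold minimum, each library left out and the animal as a block. CD44- and CD44+ columns share animal numbers and are taken as pairs from the same animal; deviations of same-animal libraries correlated at 0.126 to 0.24 in R26 and 0.02 to 0.097 in OG. No replicate pair agreed within sampling noise. Labels do not say that animals were raised or processed independently, so p-values measure the spread between these samples. The test was tried on simulated data.

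The genes and lists were chosen with earlier results of these data known. Besides the 8 genes, the text prints some of the 3 nearest profiles per gene, and some of the 4 genes of smallest adjusted p per list and comparison. Mmp2, F3, Procr, Adam8, Timp2, Timp3, Reck and Mmp15 were picked from these. Promoter sequences are RefSeq's on GRCm38.p6, gene spans and exon lengths are from GENCODE M21 on GRCm38; Eno1's copies were not examined.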

Additional observations from a re-analysis of the deposited data

Results flagged for a closer look

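In OG CD44+ cells the Plau level of animal 3, 37.3 CPM, stood apart from the other 3 animals (21.1 to 22.8 CPM), the only one of 28 groups of 4 examined in which a single library did; chance alone gives about 1 in 20. That library also had the highest sums of its group for fibroblast markers (5836 CPM), lymphocyte and plasma cell markers (427 CPM) and endothelial markers (42.4 CPM). The part of these in the Plau level was not tested.

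The CD44 effect differed between the prefixes, by the edgeR interaction test, for 4 genes: it was smaller in OG by 2.36 for Plaur (-2.36), by 1.60 for Plat (-1.60) and by 2.46 for Timp1 (-2.46), and larger by 0.77 for Mmp14.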

How the results depend on the processing

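Of 254 alternative values of the counts of called genes, 247 were within 1.5 times the main count. The 7 others all came from the 1.5-fold minimum, by whose construction small changes are not called: over all genes 1845 were called with CD44 in OG, 2035 with CD44 in R26, 4646 between prefixes in CD44- cells, 4779 in CD44+ cells and 668 in the interaction, and of the 6 tested genes 3 were called with CD44 in R26 and 2 in the interaction. Leaving out each library in turn left 6 of the 6 called with CD44 in OG, 4 to 6 in R26, 6 between prefixes in CD44- cells, 5 to 6 in CD44+ cells and 4 to 5 in the interaction; over all genes the counts were 7044 to 7914, 5670 to 7689, 10014 to 10899, 10352 to 10880 and 3284 to 4523. Of 761 alternative fold changes of the 6 genes, 0 reversed and 44 changed their call. With the animal as a replicate block, 6 and 6 were called with CD44 in OG and R26 and 5 in the interaction, where Serpine2 gained its call; it changed no other call of the 6 genes, and between prefixes no block could be fitted since no animal is shared. Scaling without R26 libraries moved the median of all genes by up to -0.113 (OG against R26 in CD44- cells) and 0.125 (interaction), which is small beside the differences of Plaur, Plau, Plat and Timp1. Depth limits Mmp7 (11 counts in all), Mmp9 and, in R26 CD44- cells, Timp1 and Plau.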
